A study of Rattus norvegicus with 90 samples.

Results

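Rat cardiomyocytes, the contracting muscle cells of the heart, labelled as heart cells of Sprague-Dawley rats, were compared 24 h after exposure to a high or a low dose of thioacetamide-S-oxide. The high dose was 1.50 mM and the low dose 0.50 mM, with 5 libraries for each, so that 10 of the 90 libraries of the series enter the comparison. The libraries were chosen by their labels for cell type, duration and dose. The rest of the series holds vehicle, low-dose and high-dose cultures of cardiomyocytes, hepatocytes and renal tube epithelial cells at 9 and 24 h. The labels give strain, tissue, cell type, agent, dose and duration, name no genetic change in any group, and do not say whether the 5 libraries of a group came from separate animals. The p-values therefore measure the spread between these libraries, which may be technical.

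Thioacetamide is a liver toxicant that must be oxidized in the body before it does harm. Thioacetamide-S-oxide is the first product of that oxidation and can be oxidized again to a form that binds proteins and lipids. The oxidizing enzymes are most abundant in the liver. Heart muscle cells are better known for their contractile apparatus, their calcium handling and their dense mitochondria.

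The files list transcripts by Ensembl identifier and do not pair them with gene names. Gene lists for oxidative stress, endoplasmic reticulum stress, heat shock, calcium handling and other processes were therefore not counted here. The cardiomyocyte label was not checked against its defining markers. In place of named markers, a list of 323 cardiomyocyte-weighted transcripts was used. It was taken from the vehicle libraries at 9 h, where each member was at least 8-fold higher in every cardiomyocyte library than in every hepatocyte and renal library, at a mean of at least 5 CPM. CPM are counts scaled to the same total in every library after TMM normalization.

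The 10 libraries held between 11519925 and 44522293 estimated counts, with a median of 25985188 in the low-dose and 31252359 in the high-dose group, and 2 libraries stood apart. In 8 libraries, between 21365 and 23352 transcripts had at least 1 count. Low-dose library MS-172 had 17044 and high-dose library MS-178 had 17772. In MS-172 the 100 most abundant transcripts took 51.6% of the transcript counts, against 25.8% to 30.6% in the other 9 libraries. The high-dose libraries held a smaller share in these 100 transcripts than the low-dose libraries, with no overlap (2-sided exact permutation test, p = 0.00794, the smallest that 5 against 5 allows, adjusted p = 0.0318 over 4 library measures). Counts, transcripts detected and the share of counts on transcripts did not pass this test (adjusted p = 0.366, 0.452 and 0.452). Without MS-172 and MS-178, mean counts were 34019700 at the high and 24859800 at the low dose (exact permutation test, adjusted p = 0.0381). Transcripts detected then passed as well (adjusted p = 0.0381), but these libraries were left out for that measure. The difference in the share of the 100 most abundant transcripts was then -1.80 percentage points, against -6.60 with all 10. Many results below are given with and without MS-172 and MS-178, and the others with all 10 libraries unless stated. With all 10 libraries thinned to the same transcript total, an alternative chosen after seeing the data, 941 transcripts were called between the doses (355 higher and 586 lower), against 964 at full depth. The part of the most abundant transcripts of MS-172 in the results was not tested.

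**Figure D1:**
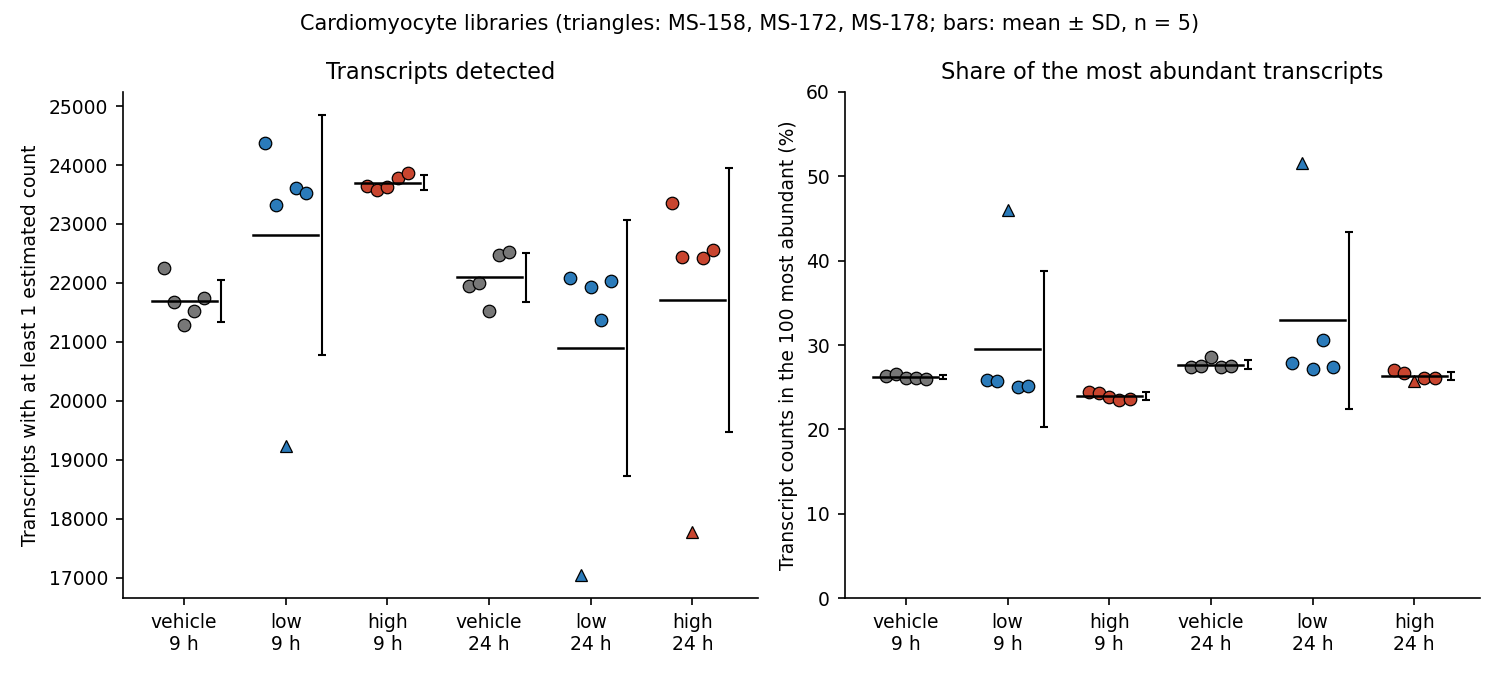
Transcripts with at least 1 estimated count (left) and the share of transcript counts in the 100 most abundant transcripts, in percent (right), for each of the 30 cardiomyocyte libraries by dose and time. Points are libraries, horizontal bars are means and vertical bars are the SD (n = 5). MS-172 and MS-178 lie below all other libraries at 24 h on the left, and MS-172 and the low-dose 9 h library MS-158 lie at 51.6% and 46.0% on the right.

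The high dose changed the level of 964 transcripts against the low dose at 24 h, and more of them fell than rose. Of 17098 transcripts tested, 361 were higher and 603 lower at the high dose, and the mean absolute log2 fold change over all transcripts was 0.473. Without MS-172 and MS-178 the count was 1686, with 702 higher and 984 lower of 17287 tested, and the mean absolute log2 fold change was 0.375. Leaving out single libraries gave 1465 without MS-172 and 631, 598, 592 and 600 without MS-174, MS-176, MS-177 and MS-180. A transcript was called differentially expressed at a Benjamini-Hochberg adjusted p of at most 0.05 from edgeR's quasi-likelihood test where its change was also 1.51-fold or more (0.41 on the natural-log scale). The share called was 5.64% with all 10 libraries (2.11% higher and 3.53% lower) and 9.75% without the 2 libraries (4.06% higher and 5.69% lower). An unadjusted p under 0.05 was found for 26.8% and 37.1% of the transcripts.

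The transcripts called with and without MS-172 and MS-178 overlapped in large part. Of the 964 called with all libraries, 842 were also called without them in the same direction (313 higher and 529 lower), 12.7% were called only with all libraries, and 0 were called in opposite directions. Of the 17063 transcripts tested in both fits, a further 801 were called only without the 2 libraries. Most of the fold changes were moderate. Among the 361 transcripts that rose, the median log2 fold change was 0.99, and 180 rose by at least 2-fold, 47 by at least 4-fold and 15 by at least 8-fold. Among the 603 that fell the median was -1.04, with 321, 69 and 21 past the same limits. The mean absolute difference of single high-dose libraries from the low-dose mean (log2 CPM) was 0.651 for MS-178 and 0.391 to 0.451 for the other 4.

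All 5 high-dose libraries lay above all 5 low-dose libraries for 8.72% of the transcripts tested, and below them for 7.78%. Of the called transcripts, 347 of the 361 that rose and 552 of the 603 that fell were separated in this way, a share that is high because calls are made on the same difference. A further 1922 separated transcripts were not called. Over all separated transcripts, more lay above than below, unlike among the called transcripts, of which more fell.

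The called transcripts came from the whole range of expression, and those that fell were somewhat longer than the rest. Their median length was 2589 bases among those that fell and 2296 bases among those that rose, against 2188 bases for all transcripts tested. From the shortest to the longest quartile of the transcripts, 2.50%, 3.14%, 4.07% and 4.40% were called lower, and 2.04%, 2.04%, 2.43% and 1.94% were called higher. By mean level, 3.91% of the lowest quartile and 6.69%, 5.45% and 6.50% of the other quartiles were called. Near-silent transcripts were a minority. Of the 361 that rose, 54 had a mean under 1 CPM at the low dose, and of the 603 that fell, 55 had a mean under 1 CPM at the high dose.

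**Figure D2:**
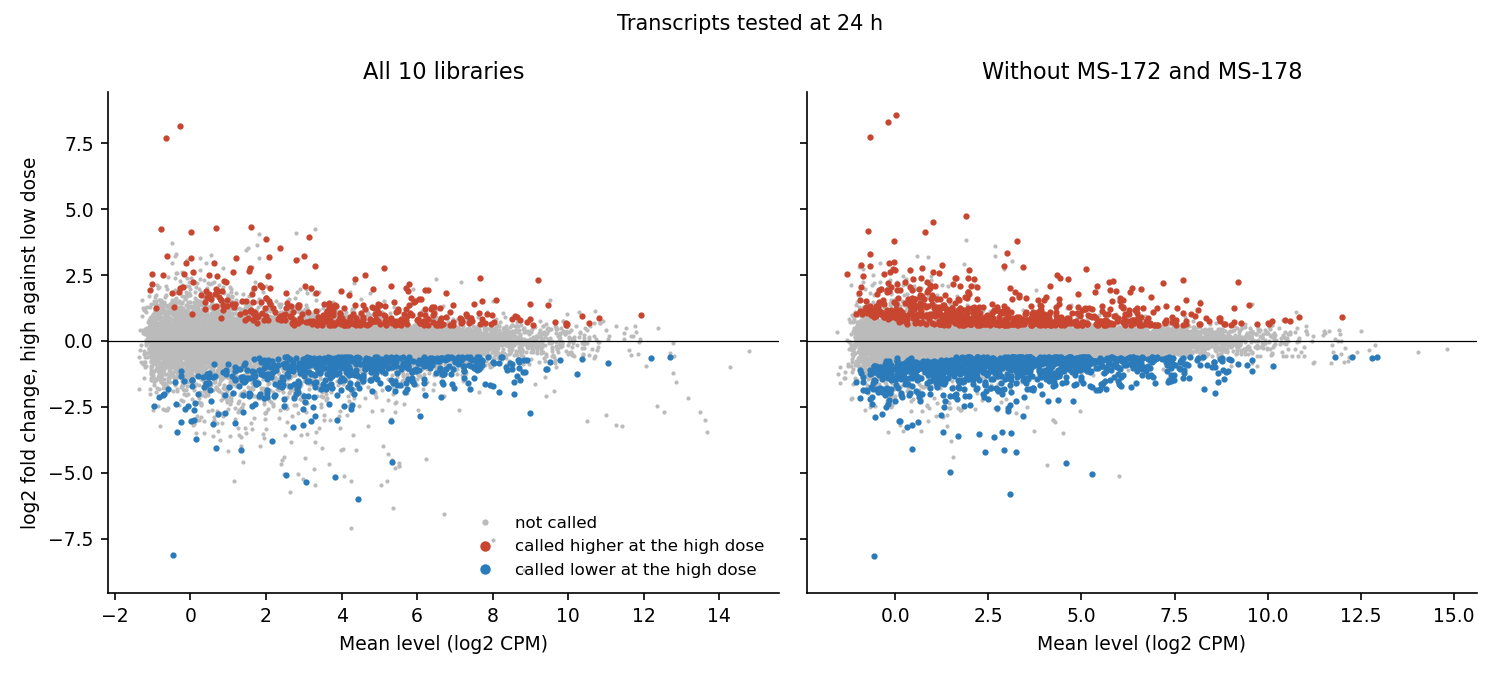
The log2 fold change of each transcript (high against low dose at 24 h, vertical axis) against its mean level (log2 CPM, horizontal axis), with all 10 libraries (left) and, for the transcripts tested on the left, without MS-172 and MS-178 (right). Colored points are called transcripts. On the left, some abundant transcripts lie far below 0 without being called, and most of this tail is gone on the right.

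More of the cardiomyocyte-weighted transcripts fell than rose at the high dose. Of the 323 members, all of which were tested, 86 fell (26.6%) and 14 rose (4.33%), where 3.53% and 2.11% of all transcripts tested did so. The median log2 fold change was -0.349 over the list and 0.00105 over all transcripts tested, and 69.0% of the list lay below 0 against 49.9% of all transcripts. Members of the list made up 86 of the 603 transcripts that fell (14.3%) and 14 of the 361 that rose (3.88%), while the list is 1.89% of the transcripts tested. In such bulk libraries, fewer cells of a type and less RNA of that type per cell cannot be told apart.

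The median level of the list was lower in every high-dose library than in any low-dose library. This median, as log2(CPM + 0.5), was 5.19, 5.13, 5.15, 5.42 and 5.17 in the low-dose libraries MS-171 to MS-175 and 5.02, 5.01, 4.84, 4.94 and 4.91 in the high-dose libraries MS-176 to MS-180. Vehicle libraries at 24 h lay between 5.28 and 5.33. The doses do not overlap on this scale, and the low-dose libraries lie on both sides of the vehicle range, with MS-174 above it and the other 4 below.

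As a share of all transcript counts the list overlapped between the doses because of 1 library. It took 9.88%, 6.15%, 10.4%, 10.9% and 9.99% in the low-dose libraries MS-171 to MS-175, where the value of 6.15% is that of MS-172, whose 100 most abundant transcripts hold over 50% of its transcript counts. In the high-dose libraries MS-176 to MS-180 it took 8.92%, 8.76%, 8.17%, 7.61% and 8.12%. The vehicle libraries at 24 h had 11.5% ± 0.258 (SD, n = 5).

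Leaving out MS-172 and MS-178 left this pattern in place. Of the list, 31.9% then fell and 6.81% rose, against 5.69% and 4.06% of all transcripts, with a median log2 fold change of -0.333. With all 10 libraries, the high-dose group was wholly below the low-dose group for 35% of the members and wholly above it for 8.67%, against 7.78% and 8.72% of all transcripts tested. A stricter list of 190 transcripts, at least 16-fold higher in cardiomyocytes, had 29.5% that fell and 2.11% that rose, with a median of -0.385. A wider list of 566 transcripts at the 4-fold limit had 22.1% and 3.89%, with a median of -0.268.

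**Figure D3:**
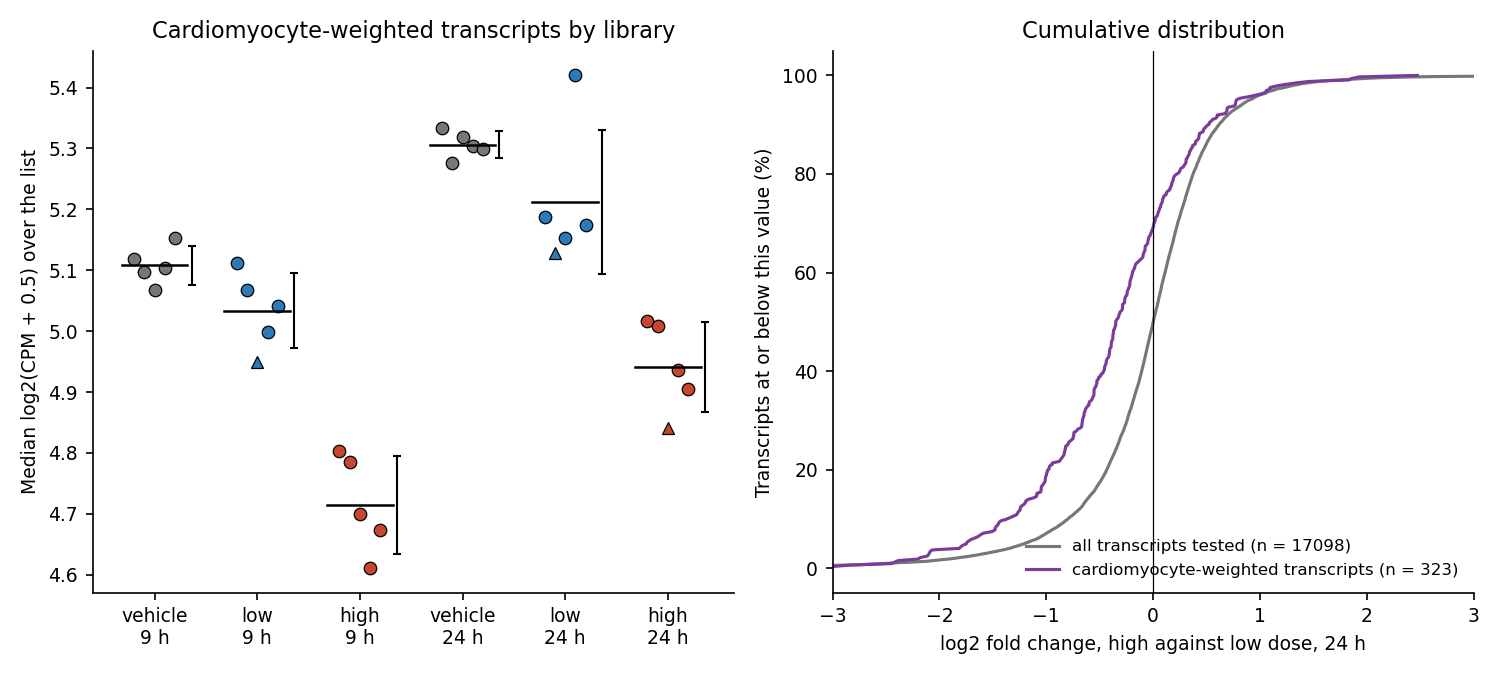
Left, the median log2(CPM + 0.5) of the cardiomyocyte-weighted transcripts in each cardiomyocyte library (points), with the mean and SD of each group (n = 5). The axis does not start at 0, and the high-dose libraries at 24 h lie between 4.84 and 5.02, below the low-dose libraries at 5.13 to 5.42. Right, the cumulative distribution of log2 fold changes at 24 h for the 323 list members and for all 17098 transcripts tested, with the list shifted to the left.

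The vehicle cultures place the doses against the untreated level. Both comparisons share libraries with that between the doses, so no overlap or correlation is given. The high dose against vehicle gave 2144 called transcripts of 17286 tested (12.4%), with 1039 higher (6.01%) and 1105 lower (6.39%), and 2467 without MS-178. The low dose against vehicle gave 0 of 16998 (0%) by edgeR's quasi-likelihood test, with 2028 at an unadjusted p under 0.05 and a smallest adjusted p of 0.11. Without MS-172 it gave 7, with 5 higher and 2 lower.

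For the transcripts that rose between the doses, the median log2 fold change was 1.11 for the high dose against vehicle, over all 361, and 0.124 for the low dose against vehicle, over the 334 that were tested there. For those that fell it was -1.02 (598 tested) and 0.0141 (603 tested). Without MS-172 the low-dose medians were 0.154 and -0.0553, so that the sign of the latter turned. Over all transcripts the medians were 0.00303 at the high dose and -0.0103 at the low dose. The transcripts were chosen in a comparison that shares these libraries, and the values are a description. Of the cardiomyocyte-weighted transcripts, 37.8% fell and 8.67% rose at the high dose against vehicle, with a median of -0.391. At the low dose against vehicle 0 were called, with a median of -0.0644. Without MS-172, 2 of 322 tested were called higher and 0 lower, with a median of -0.0578, where 7 of all 17218 transcripts were called.

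The transcripts described singly are the 2 with the largest increase and the 2 with the largest decrease among 516 called transcripts at a mean log2 CPM of 3 or more, with separated groups and a call also without MS-172 and MS-178. Separation of the groups and a call with and without these libraries are therefore fixed by the choice and are no support. ENSRNOT00000020606, a transcript of 1154 bases, had the largest increase. Its levels at the low dose were 1.49, 0.318, 1.63, 0.466 and 1.41 CPM in MS-171 to MS-175, and at the high dose 16.5, 18.0, 14.7, 19.0 and 18.0 CPM in MS-176 to MS-180. Every high-dose library was above every low-dose library, and MS-172 and MS-178 were the lowest of their groups. The means were 1.06 ± 0.619 and 17.2 ± 1.68 CPM (SD, n = 5 per dose). On the log2 scale the difference fitted by edgeR was 3.93 with a standard error of 0.37 (adjusted p = 3.08e-04, edgeR). With both libraries left out it was 3.80 (adjusted p = 1.18e-04, edgeR). Vehicle libraries at 24 h held 0.403 to 0.786 CPM, within the range of the low dose.

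The same transcript was also higher at the high dose at 9 h, in other libraries. Its mean was 12.5 ± 1.61 CPM at the high dose and 1.05 ± 0.587 CPM at the low dose (SD, n = 5 per dose), and the log2 fold change was 3.68 (adjusted p = 1.71e-04, edgeR). The difference between the fold changes at 24 and 9 h was 0.28 (standard error 0.49, adjusted p = 1, edgeR interaction term). In hepatocytes, ENSRNOT00000020606 fell between their own doses at 24 h (log2 fold change -1.33, adjusted p = 5.35e-04, edgeR), and in renal cells its log2 fold change of 0.58 did not pass (adjusted p = 0.269, edgeR).

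ENSRNOT00000008113, of 1548 bases, had the next largest increase. It stood at 1.53, 2.86, 2.23, 0.408 and 1.41 CPM in the low-dose libraries and at 14.96, 14.3, 18.5, 13.5 and 14.4 CPM in the high-dose libraries, in the same order. The groups did not overlap, as the rule requires, and MS-172 and MS-178 were the highest of their groups. The means were 1.69 ± 0.924 and 15.1 ± 1.97 CPM (SD, n = 5 per dose), and the log2 fold change was 3.20 with a standard error of 0.40 (adjusted p = 1.37e-03, edgeR). Vehicle libraries at 24 h held 0.214 to 0.629 CPM.

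At 9 h the log2 fold change of ENSRNOT00000008113 between the doses was 3.73, with means of 0.866 ± 0.247 and 11.6 ± 0.946 CPM (SD, n = 5 per dose). The difference between the times was -0.50 (standard error 0.42, adjusted p = 1, edgeR interaction term). In renal cells it rose as well (log2 fold change 4.05, adjusted p = 2e-05, edgeR), at the renal doses of 0.500 against 0.125 mM. In hepatocytes it fell (log2 fold change -1.19, adjusted p = 5.76e-06, edgeR). In untreated cultures at 9 h, its level was 17.3 ± 1.04 CPM in hepatocytes, 0.944 ± 0.218 CPM in cardiomyocytes and 0.0569 ± 0.0504 CPM in renal cells (SD, n = 5 per cell type), scaled together over the vehicle libraries of the 3 cell types at 9 h. Neither of these transcripts is cardiomyocyte-weighted, and the estimated counts of both were whole numbers, within 0.001, in all 10 libraries.

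The decreases chosen by the same rule rested on less even groups. ENSRNOT00000078237, of 5297 bases, stood at 13.2, 170, 6.61, 30.8 and 8.34 CPM in the low-dose libraries MS-171 to MS-175. It was at 0 in MS-176 to MS-179 and at 3.45 CPM in MS-180. The groups do not overlap, as the rule requires, but MS-172 alone is over 5 times the next library. In vehicle cultures at 24 h the transcript was at 0 in 4 libraries and at 22.02 CPM in MS-168. The log2 fold change was -5.98 with a standard error of 1.61 (adjusted p = 0.047, edgeR). It was -4.12 without MS-172 and MS-178 (adjusted p = 0.0492, edgeR), where both calls were part of the rule. It was -4.34 without MS-172. Without MS-180 all high-dose libraries left are at 0, and the fitted value is then no measured fold. The call was lost without MS-171, MS-174, MS-175, MS-176, MS-177, MS-178 or MS-179, with an adjusted p of 0.0705, 0.0862, 0.0592, 0.107, 0.113, 0.0948 and 0.0959 (edgeR). Its estimated counts were not whole numbers, so reads were divided between it and other transcripts.

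ENSRNOT00000003933, of 1272 bases, had the same unevenness, and its estimated counts were not whole numbers either. Its low-dose levels were 6.02, 64.7, 1.72, 13.5 and 3.40 CPM and its high-dose levels 0.201, 0.120, 0, 0.745 and 0.941 CPM, in the order of the library numbers. MS-172 was again the highest, MS-174 the next, and of the vehicle libraries at 24 h only MS-168 was above 0.1 CPM, at 5.19 CPM. The log2 fold change was -5.37 with a standard error of 1.21 (adjusted p = 0.0232, edgeR). It was -3.60 without MS-172 and MS-178 (adjusted p = 0.0138, edgeR), where both calls were again part of the rule. The call was lost without MS-176, MS-177, MS-178 or MS-179, with an adjusted p of 0.0699, 0.0688, 0.0513 and 0.052 (edgeR). At 9 h, both transcripts were highest by far in MS-158, at 123.3 and 37.2 CPM.

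**Figure D4:**
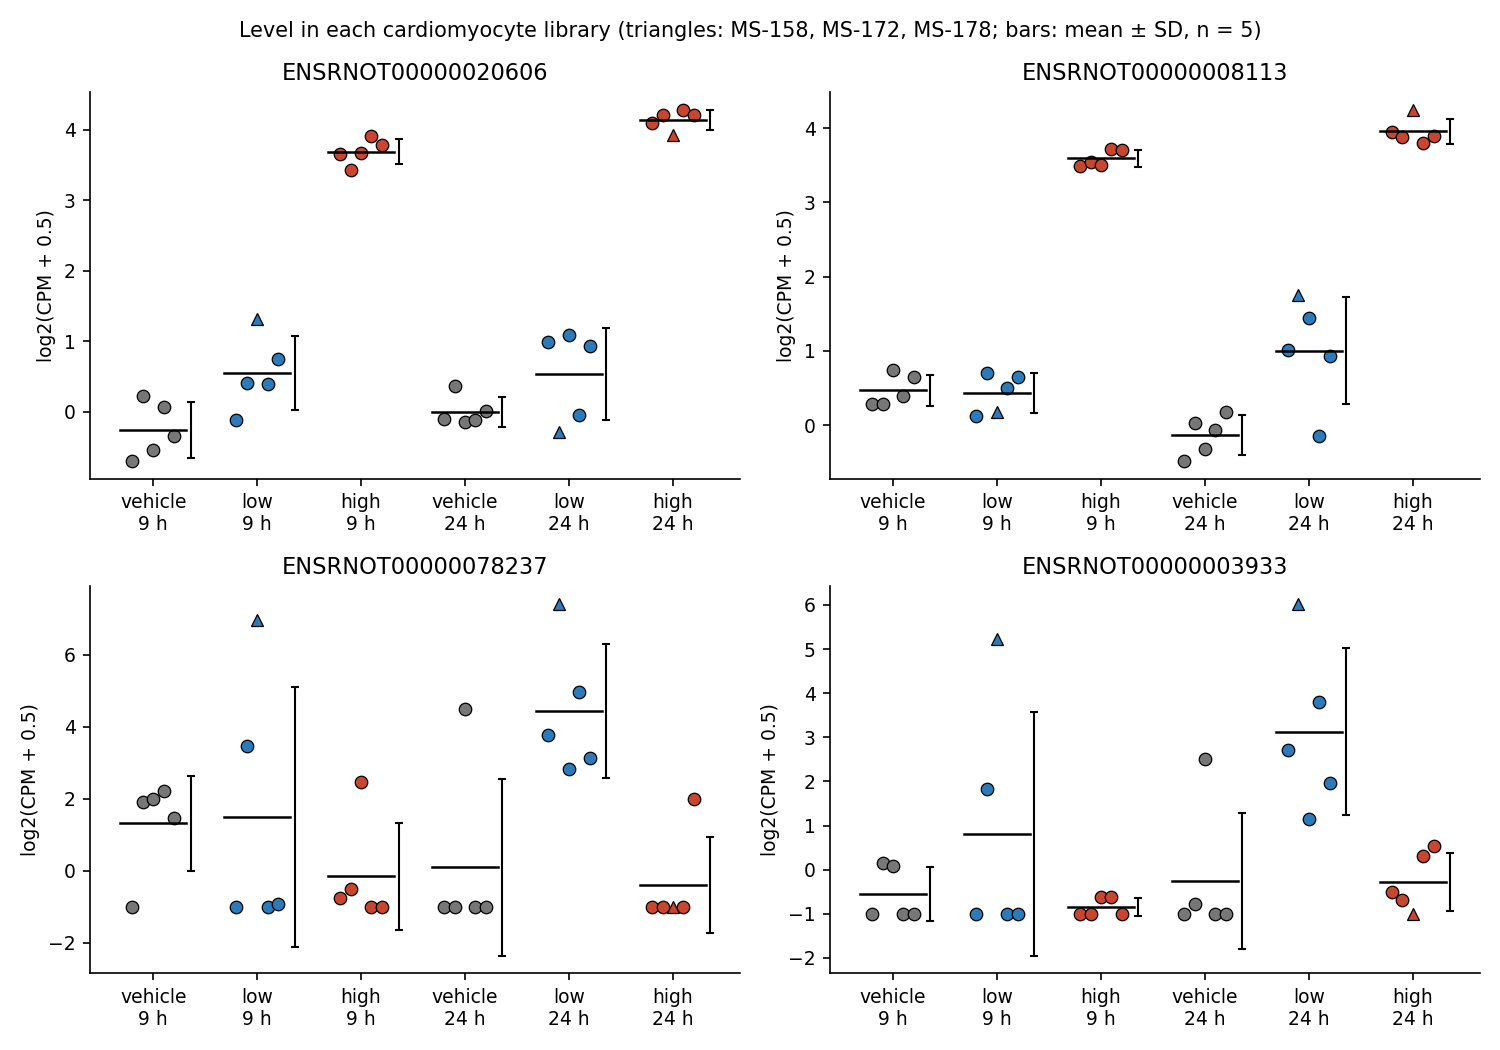
Level of the 4 transcripts as log2(CPM + 0.5) in each of the 30 cardiomyocyte libraries, by dose and time. Points are libraries, triangles are MS-158, MS-172 and MS-178, and bars are the mean and SD of these log values (n = 5). The 2 transcripts in the upper row are high in all high-dose libraries at both times, while the 2 in the lower row are highest in MS-172 and MS-158.

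The comparison of the doses at 9 h uses none of the 24 h libraries. It gave 1414 called transcripts of 18393 tested (7.69%), with 599 higher (3.26%) and 815 lower (4.43%). Without the low-dose library MS-158, in which 19243 transcripts were detected, it gave 2078 of 18652 (11.1%), with 876 higher (4.7%) and 1202 lower (6.44%).

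With all libraries, more than 50% of the transcripts called at 24 h were called in the same direction at 9 h. Of those that rose at 24 h, 358 were tested at 9 h and 191 rose there (53.4%), with a median log2 fold change of 0.742 at 9 h. These 191 are 35% of the 546 that rose at 9 h and were tested at 24 h. Of those that fell, 601 were tested and 344 fell (57.2%), with a median of -0.807, which is 43.9% of the 784 that fell at 9 h. None was called in opposite directions with all libraries. Without only MS-172 and MS-178 the shares were 40.8% of those that rose and 47.7% of those that fell. Without MS-158, MS-172 and MS-178 they were 49.2% of those that rose and 55.6% of those that fell, with 4 and 1 in opposite directions. Across 17207 transcripts the log2 fold changes at 24 and 9 h then had a Pearson r of 0.594. With all libraries r was 0.725 (n = 17005), and with only MS-158 left out it was 0.465 (n = 17029). Transcripts are no independent replicates of one another, and MS-172 and MS-158, both of the low dose, have in common a raised share of their most abundant transcripts.

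Of the cardiomyocyte-weighted transcripts, more fell than rose at 9 h as well. Of 322 tested, 83 fell (25.8%) and 16 rose (4.97%), against 4.43% and 3.26% of all transcripts. The median log2 fold change was -0.288 against -0.0135 for all transcripts. Without MS-158, 86 fell (26.7%) and 20 rose (6.21%), against 6.44% and 4.7% of all transcripts, with a median of -0.321 against -0.00365. Of the 86 that fell at 24 h, 55 fell at 9 h, which is 64% of those at 24 h and 66.3% of the 83 at 9 h.

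A test of the difference between the times called 51 of 18831 transcripts (0.271%), with 26 having a more positive and 25 a more negative difference between the doses at 24 h than at 9 h (edgeR interaction term). Of the 964 transcripts called at 24 h, 26 were among them. The interaction term holds the 24 h difference of the same libraries, so such overlaps are a description and no test. Without MS-158, MS-172 and MS-178 the count was 383 of 19238 (1.99%), of which 41.5% were more positive and 58.5% more negative, and 9.79% of the 1686 called at 24 h were among them.

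**Figure D5:**
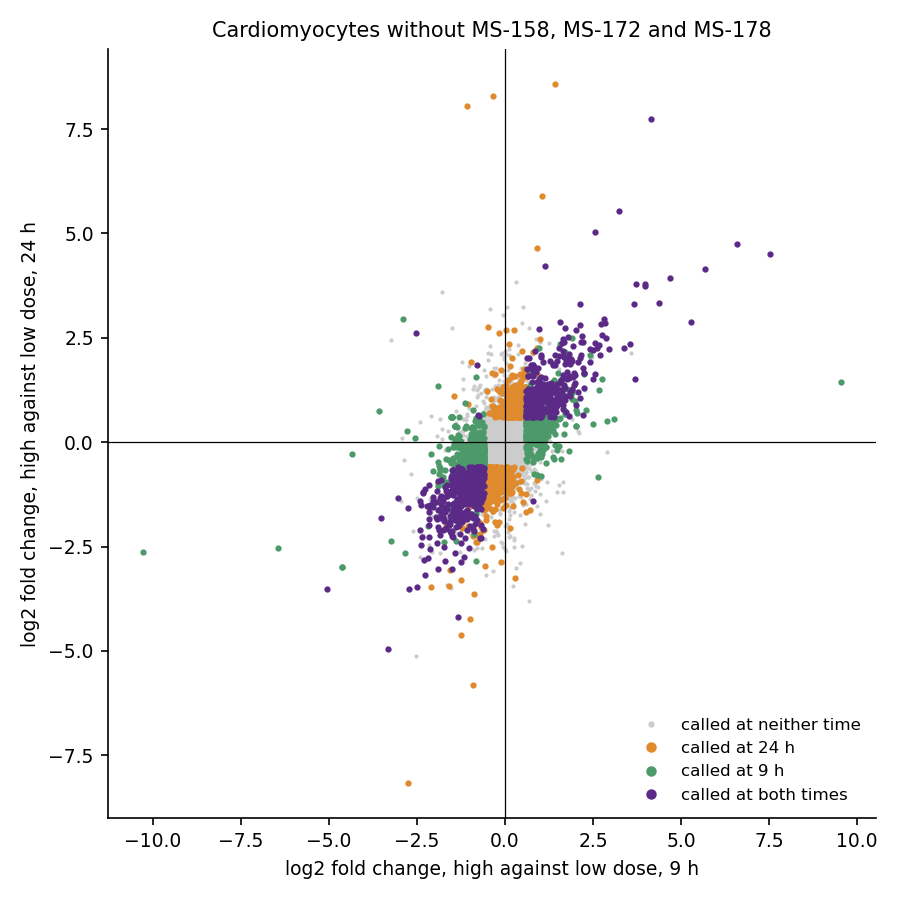
The log2 fold change between high and low dose at 24 h (vertical axis) against that at 9 h (horizontal axis) for each of 17207 transcripts in cardiomyocytes, without MS-158, MS-172 and MS-178. Colors mark transcripts called at 24 h, at 9 h or at both times. Most transcripts called at both times lie in the lower left and upper right, and Pearson r is 0.594.

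The same contrast in the other cell types used other doses, 0.500 against 0.125 mM in renal cells and 0.125 against 0.025 mM in hepatocytes, so their values are set beside those of cardiomyocytes without a comparison. Renal cells at 24 h gave 3532 called transcripts of 17941 (19.7%), with 1504 higher (8.38%) and 2028 lower (11.3%). Of the transcripts that rose in cardiomyocytes, 331 were tested in renal cells, where 99 rose (29.9%) and 32 fell (9.67%). Of those that fell in cardiomyocytes, 501 were tested, and 225 fell (44.9%) and 35 rose (6.99%). With MS-172 and MS-178 left out, 618 of those that rose in cardiomyocytes were tested in renal cells, where 23.6% rose and 9.55% fell. Of those that fell, 784 were tested, and 38% fell and 7.27% rose.

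Hepatocytes at 24 h gave 2520 called transcripts of 16891 (14.9%), with 1111 higher (6.58%) and 1409 lower (8.34%). Of the transcripts that rose in cardiomyocytes, 300 were tested in hepatocytes, where 37 rose (12.3%) and 45 fell (15%), with a median log2 fold change of -0.0659. Of those that fell, 381 were tested, and 87 fell (22.8%) and 37 rose (9.71%), with a median of -0.213. With MS-172 and MS-178 left out, 534 of those that rose in cardiomyocytes were tested in hepatocytes, where 9.55% rose and 14.4% fell. Of those that fell, 585 were tested, and 20.5% fell and 8.72% rose. Across transcripts, and without MS-172, MS-178 and the renal low-dose library MS-145, the log2 fold changes of cardiomyocytes had a Pearson r of 0.154 with those of renal cells (n = 16301) and of -0.0484 with those of hepatocytes (n = 14940). The transcripts are not independent replicates.

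The tables also count reads on 25095 genomic intervals of Rnor_6.0 that are named only by position. In a fit with the transcripts, 6485 intervals were tested and 160 were called between the doses (2.47%), with 78 higher and 82 lower at the high dose. With MS-172 and MS-178 left out, 491 of 6568 were called (7.48%), with 263 higher and 228 lower. The 4 intervals given here follow the rule used for transcripts, which was applied to them after their values were seen. What is annotated at these positions was not analysed here.

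The interval chr4:117531981-117550439 had the largest increase. It stood at 22.9, 21.0, 31.4, 21.9 and 26.8 CPM in the low-dose libraries and at 388, 410.5, 334, 355 and 388 CPM in the high-dose libraries. The log2 fold change was 3.91 with a standard error of 0.13 (adjusted p = 3.41e-07, edgeR). The vehicle libraries at 24 h were close to the low dose, at 25.4 to 39.0 CPM. At 9 h the order was another one. The vehicle libraries had 257 to 299.7 CPM, the high-dose libraries 124.2 to 141.6 CPM and the low-dose libraries 30.98 to 44.1 CPM, with no overlap between these groups.

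The interval chr16:71033291-71035703 had 1.72 to 2.78 CPM at the low dose and 14.0 to 20.8 CPM at the high dose (log2 fold change 2.84, adjusted p = 7.45e-05, edgeR). Its vehicle libraries at 24 h held 1.57 to 2.03 CPM, within or just below the low-dose range. The largest decreases, at chr6:133677408-133682456 and chr18:53057428-53067994, had a log2 fold change of -2.72 (adjusted p = 0.0423, edgeR) and -2.22 (adjusted p = 0.0465, edgeR). MS-172 was far above the rest in both, at 100.8 CPM against 9.16 to 21.8 CPM in the other low-dose libraries for the first and at 135.3 CPM against 19.0 to 38.1 CPM for the second. Leaving out MS-172 and MS-178, these log2 fold changes were -1.48 and -1.25 (adjusted p = 0.00385 and 0.00495, edgeR), where a call without these libraries was part of the rule.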

How the data were processed

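Poly-A-enriched RNA of each culture was sequenced in paired reads per the labels. The authors deposited, for each library, expected (estimated) counts and TPM per target from kallisto 0.42.4 with Rnor_6.0. A read that fits several transcripts is divided among them, so estimated counts need not be whole. They were rounded here. The TPM, scaled by the authors to the same total in each library, served for 1 alternative.

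The 40071 Ensembl transcripts were tested between groups with edgeR 4.0.16 in R 4.3.3 (filterByExpr, TMM, quasi-likelihood test, Benjamini-Hochberg adjustment over all transcripts tested). The authors used Sleuth, whose resampling estimates were not used here. The thresholds, an adjusted p of 0.05 and a natural-log fold change of 0.41, are those of the study's methods. Standard errors are the fold change divided by the square root of F. Levels are CPM with TMM over the 30 cardiomyocyte libraries, and over the 15 vehicle libraries at 9 h where cell types are set side by side. Gene names were not matched here (0 of the identifiers), and the tests stayed per transcript. The fits were run on simulated counts as a check of the code. The simulated spread was smaller than that estimated here, and no simulated library stood apart as MS-172 does. The check therefore does not show how the fits perform on these libraries. No 2 libraries were identical. Alternatives used DESeq2 1.42.0, limma 3.58.1, other filters, thresholds and features, and each library left out. Thinning to 10519414 transcript counts, the fits without MS-145 and without MS-158 at 9 h, and the intervals shown were chosen after seeing the data. The transcripts, lists and thresholds were chosen with earlier results of these data known. Transcripts named singly are the 2 largest increases and the 2 largest decreases at a mean log2 CPM of 3 or more, with separated groups and a call with and without MS-172 and MS-178.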

Additional observations from a re-analysis of the deposited data

Results flagged for a closer look

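Among 18 sets of 5 libraries (library measures and the 4 transcripts, at each dose), 7 values lay apart from the other 4 of their set, where chance gives about 1 in 20 sets. Of the 7, 5 are values of MS-172, and the transcripts detected of MS-172 and MS-178 are the values by which these libraries were named, so the tally is no test. Low-dose library MS-172 had 17044 transcripts detected, 51.6% of its transcript counts in the 100 most abundant transcripts and 6.15% on the cardiomyocyte-weighted transcripts. It also had 170 CPM of ENSRNOT00000078237 and 64.7 CPM of ENSRNOT00000003933. High-dose library MS-178 had 17772 transcripts detected. High-dose library MS-180 had 3.45 CPM of ENSRNOT00000078237, where the other 4 were at 0.

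The difference between the doses itself differed between 24 and 9 h for 51 transcripts (edgeR interaction term), which is 0.271% of those tested. The share was 0.626% without MS-158 and 1.99% without MS-158, MS-172 and MS-178. Outside the transcripts, 160 genomic intervals differed between the doses.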

How the results depend on the processing

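With all 10 libraries, 964 transcripts were called (361 higher and 603 lower). The count was 1756 (651 and 1105) with DESeq2, 2310 (872 and 1438) with all 6 cardiomyocyte groups in one fit, 2162 (1000 and 1162) with limma voom and library weights, 1467 (616 higher) with no fold-change threshold, 501 (180 and 321) at 2-fold or more, and 1686 (702 and 984) without MS-172 and MS-178. Upper-quartile normalization (938), no filter on low counts (704), at least 10 counts in 5 libraries (965), limma (1028), intervals in the fit (836), only transcripts with counts whole within 0.001 (697) and thinned libraries (941) stayed within 1.5 times. These are counts, and the number of transcripts tested differed between the settings. With only whole counts, 3.98% of 6978 tested were called higher and 6% lower. With no filter on low counts it was 0.987% and 1.53% of 27974, against 2.11% and 3.53% of 17098 as reported. The higher share of calls, 37.4%, ranged from 35.9% to 46.3%. With single libraries left out the counts were 592 to 1465, with 215 to 646 higher and 365 to 819 lower. The count was 1465 without MS-172, 631 without MS-174, 598 without MS-176, 592 without MS-177 and 600 without MS-180. The cause was not tested. The mean absolute log2 fold change was 0.858 without a filter on low counts, which adds transcripts with few counts, and 0.398 to 0.556 with single libraries left out.

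Of the cardiomyocyte-weighted transcripts, 4.33% were called higher (all transcripts 2.11%), against 6.81% with all 6 groups in one fit (all transcripts 4.68%), 6.81% without MS-172 and MS-178 (4.06%), 7.12% with library weights (5.85%) and 2.11% at the 16-fold limit (2.11%). The share called lower, 26.6% (all transcripts 3.53%), was 15.8% at 2-fold or more (1.88%). With single libraries left out, 3.72% to 6.19% were higher and 19.8% to 32.5% lower. The median was -0.283 with library weights, -0.288 with intervals in the fit, -0.268 at the 4-fold limit and -0.377 to -0.299 with single libraries left out, and below 0 in each alternative run. The share with a dose and time interaction, 0.271%, was 0.487% without MS-172 and MS-178, 1.99% without MS-158 as well and 1.24% with DESeq2. With single libraries left out it was 0.171% to 0.626%, with 0.440% without MS-172, 0.171% without MS-177, 0.626% without MS-158 and 0.175% without the high-dose 9 h library MS-165. Without MS-172 and MS-178, the difference in estimated counts was 9160000 and in transcripts detected 837.5, both past the threshold. These libraries were left out for their few transcripts detected, so this is no independent test.

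No paired analysis was possible because the library numbers are not shared between groups.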
